A study of Mus musculus with 16 samples.

Results

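Genes of cell proliferation and of newborn neurons were followed in RNA from the striatum and the hippocampus of adult mice. The group holds 37 genes of the 24033 gene labels used, each taken by its symbol: 3 markers of chromatin in cycling cells (Top2a, Mki67 and Hmgb2), 3 cyclins of G1 and S phase (Ccnd1, Ccnd2 and Ccne1), 9 genes of DNA replication and nucleotide synthesis (Mcm2, Mcm3, Mcm4, Mcm5, Mcm7, Pcna, Rrm1, Rrm2 and Tyms), 21 genes of mitosis, and Dcx, which marks newborn neurons. The mice were hemizygous for Aldh1l1-creERT2, a transgene in which the astrocyte gene Aldh1l1 drives a tamoxifen-dependent Cre, and heterozygous for Ribotag, an allele of the ribosomal protein gene Rpl22 that carries an HA tag after Cre recombination. All 16 libraries came from 4 such animals (970, 971, 974 and 977) at postnatal day 63, males and females, with an FVB background that had been crossed to C57/Bl6N, and no animal without Cre was among them. Each animal gave 4 libraries, which form 4 groups of 4: striatal IP (Str.IP) and hippocampal IP (Hip.IP), the RNA of HA-tagged ribosomes pulled down from the lysate, and striatal input (Str.input) and hippocampal input (Hip.input), the RNA of the cleared lysate before the pulldown. An IP reports ribosome-bound RNA of every cell that recombined the allele, not of astrocytes alone, and each region was taken whole.

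Cells enter the cycle when D-type cyclins and then cyclin E release the E2F transcription factors from Rb. The MCM helicase, the PCNA clamp and ribonucleotide reductase then serve DNA synthesis. The cyclin B and Cdk1 kinase, the Aurora kinases and the spindle carry the cell through mitosis. Within mitosis, the anaphase promoting complex destroys mitotic proteins, so that the cell can leave it. In the adult rodent brain, neural stem cells with features of astrocytes persist in the subventricular zone, which lies along the lateral ventricle beside the striatum, and in the dentate gyrus of the hippocampus. They give rise to transit-amplifying cells and to Dcx-positive neuroblasts. Oligodendrocyte precursors also divide in adult grey and white matter.

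Promoter sequence of 30 of the 37 genes was found in RefSeq (GRCm38.p6), as windows that hold 250 bases before and 50 bases after the annotated start of transcription. Mitotic genes are known to share the CHR element, bound by the DREAM complex, together with CCAAT boxes bound by NF-Y, whereas many replication genes carry E2F sites. The 7 windows printed 5′ to 3′ were chosen to show both kinds of promoter beside that of Dcx, with capitals marking the letters searched on both strands: TTTGAA or TTCAAA for the CHR, CCAAT or ATTGG for the CCAAT box, and GGCGGGAA or TTCCCGCC for an E2F site.
Ube2c, chr2:164769679-164769978, plus strand: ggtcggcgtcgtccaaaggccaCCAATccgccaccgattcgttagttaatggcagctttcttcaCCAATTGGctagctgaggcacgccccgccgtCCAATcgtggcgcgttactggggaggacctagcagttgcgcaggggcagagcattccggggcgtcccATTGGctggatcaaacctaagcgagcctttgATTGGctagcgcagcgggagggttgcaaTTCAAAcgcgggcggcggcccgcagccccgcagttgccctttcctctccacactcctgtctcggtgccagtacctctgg
Top2a, chr11:99024140-99024439, minus strand: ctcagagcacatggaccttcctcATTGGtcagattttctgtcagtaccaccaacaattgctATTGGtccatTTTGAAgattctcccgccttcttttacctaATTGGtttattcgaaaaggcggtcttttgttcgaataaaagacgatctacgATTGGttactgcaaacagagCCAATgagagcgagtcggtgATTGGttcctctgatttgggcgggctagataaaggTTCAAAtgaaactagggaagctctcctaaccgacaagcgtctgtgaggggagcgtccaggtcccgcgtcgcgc
Cdc20, chr4:118437294-118437593, minus strand: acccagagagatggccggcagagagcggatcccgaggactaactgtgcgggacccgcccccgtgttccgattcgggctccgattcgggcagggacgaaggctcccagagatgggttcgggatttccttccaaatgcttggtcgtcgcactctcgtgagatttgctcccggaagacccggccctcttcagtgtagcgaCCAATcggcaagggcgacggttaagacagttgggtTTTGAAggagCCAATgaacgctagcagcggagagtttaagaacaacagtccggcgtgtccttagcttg
Cdca8, chr4:124936868-124937167, minus strand: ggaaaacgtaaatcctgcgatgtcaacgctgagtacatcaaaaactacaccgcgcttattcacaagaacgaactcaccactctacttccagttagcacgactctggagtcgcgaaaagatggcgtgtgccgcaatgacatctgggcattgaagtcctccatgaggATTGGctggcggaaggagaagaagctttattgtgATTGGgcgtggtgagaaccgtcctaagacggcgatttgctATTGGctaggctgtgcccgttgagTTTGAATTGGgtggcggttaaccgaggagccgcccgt
Mcm3, chr1:20820263-20820562, minus strand: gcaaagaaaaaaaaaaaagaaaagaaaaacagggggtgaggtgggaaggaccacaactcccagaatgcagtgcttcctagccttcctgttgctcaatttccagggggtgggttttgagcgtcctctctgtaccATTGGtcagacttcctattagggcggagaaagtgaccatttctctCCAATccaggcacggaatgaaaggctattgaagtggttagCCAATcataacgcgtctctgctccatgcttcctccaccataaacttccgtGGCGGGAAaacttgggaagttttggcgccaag
Pcna, chr2:132253131-132253430, minus strand: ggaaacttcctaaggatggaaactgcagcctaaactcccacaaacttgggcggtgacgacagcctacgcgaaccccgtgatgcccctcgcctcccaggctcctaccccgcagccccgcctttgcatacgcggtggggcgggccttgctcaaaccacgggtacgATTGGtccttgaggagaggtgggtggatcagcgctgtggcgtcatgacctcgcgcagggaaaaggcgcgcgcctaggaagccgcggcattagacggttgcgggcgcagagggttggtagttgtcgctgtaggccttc
Dcx, chrX:143933170-143933469, minus strand: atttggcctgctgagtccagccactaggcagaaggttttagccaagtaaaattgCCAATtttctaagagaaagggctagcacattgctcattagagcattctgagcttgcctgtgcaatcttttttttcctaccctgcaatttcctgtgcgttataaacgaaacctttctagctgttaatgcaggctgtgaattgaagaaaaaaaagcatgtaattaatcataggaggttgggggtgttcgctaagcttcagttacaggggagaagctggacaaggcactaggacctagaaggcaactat

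The CHR letters and the CCAAT letters were both present in the windows of 16 of the 30 genes, against 7.97% of 27025 genes with a window. Every window with the CHR letters also held the CCAAT letters, which can overlap them, as in Cdca8. The CHR letters alone were found in 20.2% of all genes, the CCAAT letters in 26 of the 30 genes and 41.1% of all genes, and the E2F letters in Rrm1 and Mcm3 and 2.52% of all genes. Of the 22 CHR matches, 15 lay from 50 bases before to 50 bases after the start, in 14 genes. All of Top2a, Mki67 and Hmgb2 had the CHR letters, as did 4 of 5 mitotic cyclins and kinases with a window, 3 of 4 genes of the checkpoint and the anaphase promoting complex, 3 of 5 of the kinetochore and passenger complex, and 2 of 3 of the spindle. By contrast, 1 of 8 replication genes (Mcm2) had them, and Ccne1 and Dcx did not. Ccna2, Ccnd1, Ccnd2, Aurkb, Kif20a, Tpx2 and Mcm4 were not matched to a window. A match describes the letters, not a bound site.

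Depth differed by library. The recovered fragments totalled 13975030 to 21776857 in striatal IPs, 4149365 to 8970048 in striatal inputs, 18927400 to 22637768 in hippocampal IPs and 9035834 to 12243233 in hippocampal inputs. In the IPs, 10 of 10 astrocyte markers were enriched over input in each region, and 10 of 10 neuron markers were depleted, although their summed level, 84.6 to 165.3 scaled FPKM in striatal IPs and 104.5 to 187.6 in hippocampal IPs, was not 0. Striatal input 974 was the shallowest library and stood apart, with a mean correlation of 0.907 with the other striatal inputs across 13449 genes, against 0.929 to 0.941 for the other 3 and 0.962 to 0.982 within the other groups. The neuron markers summed to 2274 and 2452 scaled FPKM in striatal inputs 971 and 974, against 1663 and 1780 in the other 2. Counts that rest on striatal inputs are therefore also given without 971 and 974. Striatal IP 970 held the highest value of its group for 31 of the 37 genes, whereas it was highest for 21.4% of 17830 genes.

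Most of these genes were near the limit of detection. Of the 37, 24 reached 1 FPKM in at least 4 of the 16 libraries and entered the test, and 6 (Ccnd1, Ccnd2, Rrm1, Pcna, Mcm4 and Mcm7) were at or above 1 FPKM in all 16. Another 8 (Ube2c, Ccnb2, Aurkb, Cdc20, Cenpe, Nusap1, Mcm5 and Cdca8) passed only through the striatal IPs, having reached 1 FPKM in fewer than 4 libraries elsewhere, so that their passing already implies a difference. The 13 that did not pass were Cdk1, Ccnb1, Aurka, Plk1, Bub1, Bub1b, Cenpf, Birc5, Kif20a, Prc1, Tpx2, Tyms and Spc25. Aurka, Bub1, Birc5, Kif20a, Tpx2, Tyms and Spc25 stayed under 1 FPKM in every library, with highest deposited values of 0.845, 0.564, 0.358, 0.804, 0.849, 0.939 and 0.513 FPKM. Just inside that limit, Cdk1 reached 1.08 FPKM in a single striatal IP. To account for every gene, a wider fit of 18198 genes above 0 in at least 4 libraries held all 37. The 1 FPKM limit also depends on the length each count was divided by: for Dcx this was 36062 bases, where the merged GENCODE exons measure 12647 bases, for Tpx2 21191 against 4677, for Kif20a 10603 against 4338, and for Pcna 1258 against 2400. The ratio of the 2 lengths had a median of 0.775 over genes with 1 RefSeq transcript and 1.5 over genes with 5, so levels of different genes are not on a common scale. The length does not touch the ratio of a gene's FPKM between libraries, but a longer one lowers its FPKM and so makes its fold change on the log2(value + 1) scale smaller.

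**Figure D1:**
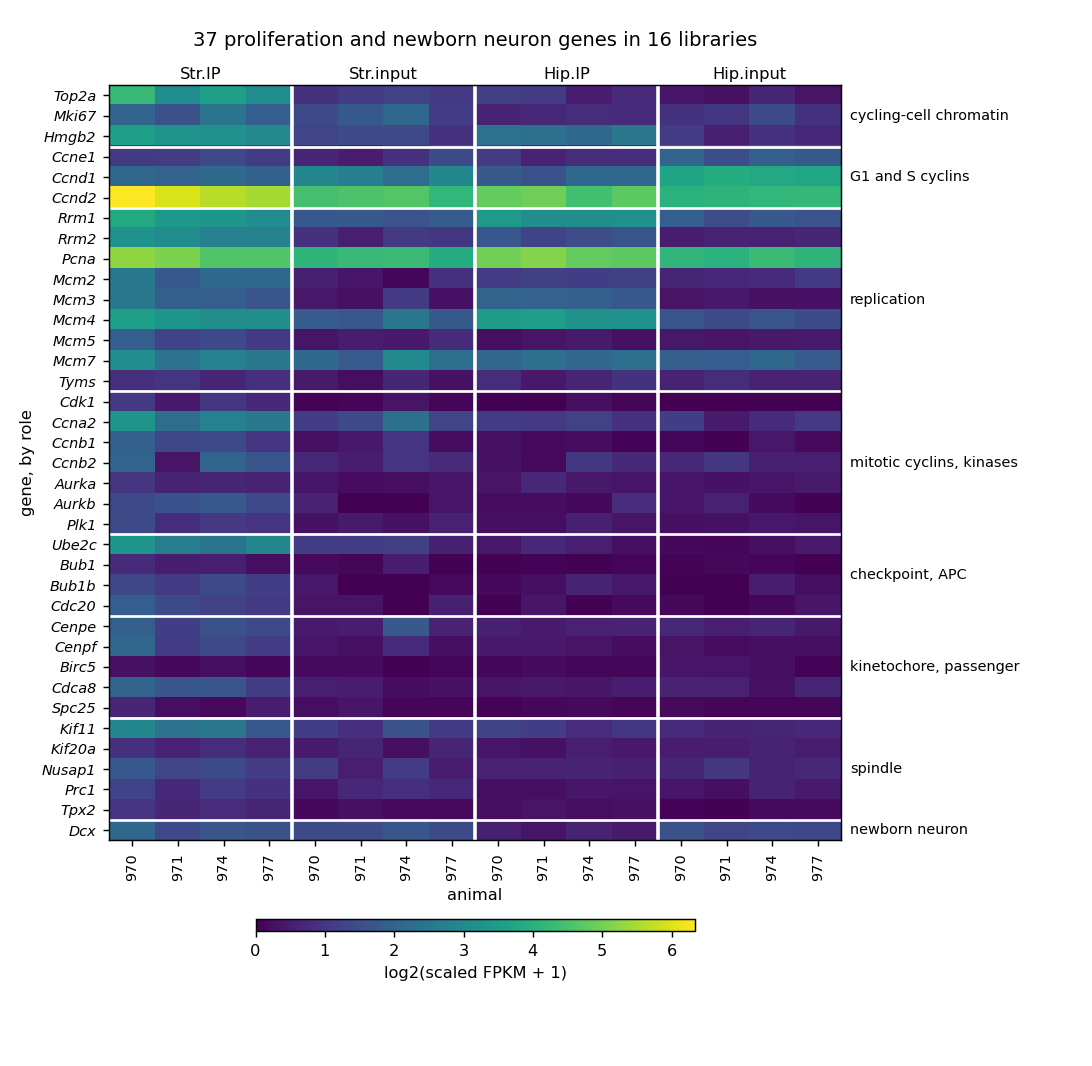
Level of each of the 37 genes (rows, grouped by role) in the 16 libraries (columns, by group and animal), as log2(scaled FPKM + 1), dark for low and yellow for high. The striatal IPs on the left are the brightest columns for most mitotic genes, whereas Pcna, Mcm4 and Rrm1 are bright in both IPs.

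The highest group mean was that of the striatal IPs for 32 of the 37 genes. The other 5 were Pcna and Mcm4, highest in hippocampal IPs, and Ccne1, Ccnd1 and Birc5, highest in hippocampal inputs. In striatal IPs over striatal inputs, 19 of the 24 genes tested rose and 1 fell, where 33.5% of 13449 genes rose and 31.4% fell (limma, adjusted p under 0.05). The 24 include the 8 genes that passed the filter only through the striatal IPs, for which passing already implies a difference. In hippocampal IPs over hippocampal inputs, 7 rose and 3 fell, where 30.1% of genes rose and 35.4% fell. Over all 37 genes in the wider fit, the counts were 29 higher and 1 lower in the striatum (26.5% and 25.7% of 18198 genes) and 7 higher and 3 lower in the hippocampus (23.4% and 30.3%). Without overlap between the groups, 22 of the 37 were higher and 1 lower in striatal IPs over inputs (21.9% and 19.9% of genes), and 10 were higher and 5 lower in hippocampal IPs over inputs (25.5% and 32.7%). By limma-voom on the recovered fragments of 36 genes, 29 rose and 1 fell in the striatum (30.9% and 30.7% of 14923 genes) and 8 rose and 3 fell in the hippocampus (29.7% and 37.7%). The hippocampal share of higher calls was thus near or below the background, and the striatal share was above it. Without striatal inputs 971 and 974, 30 of the 37 rose and 1 fell in the striatum. The median log2 fold change of the 37 genes in the wider fit was 0.77 in the striatum, where that of all genes was -0.01, and 0.04 in the hippocampus, where that of all genes was -0.08. Limma-voom gave medians of 1.76 in the striatum (all genes -0.02) and 0.22 in the hippocampus (all genes -0.20).

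Between the 2 kinds of IP, 17 of the 24 genes were higher in striatal IPs and 0 were lower, where 7.18% of genes were higher and 5.37% lower. The same 8 genes that passed only through the striatal IPs are among the 24. No gene of the 24 was lower at an unadjusted p under 0.05 either, and limma-voom on recovered fragments gave 26 higher and 0 lower among 36 (9.8% and 7.06% of genes). In the wider fit, 24 of 37 were higher and 0 lower (5.75% and 4.02%). The 4 striatal IPs lay above all 4 hippocampal IPs for 26 of the 37 genes and below them for 0, where 9.44% of genes lay above and 7.63% below. Within animals, 27 of the 37 genes were higher in the striatal than in the hippocampal IP of all 4. That count includes the 26 genes without overlap, and no share over all genes was computed for it. Between the inputs, 4 of the 24 genes were higher in the striatum and 2 lower, where 14.5% of genes were higher and 21.8% lower. Without striatal inputs 971 and 974, limma called 0 genes higher between inputs, with 2 at an unadjusted p under 0.05, and limma-voom on all inputs called 2 of 36 higher and 2 lower (12.2% and 17.3% of genes). In the wider fit 3 of 37 were higher and 2 lower (11.8% and 17.8%), and 5 were higher and 2 lower without overlap (11.4% and 16.6%). Of the 24 tested, those called higher were Ube2c, Ccna2, Top2a and Hmgb2, and Ccnd1 and Ccne1 were lower.

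The difference of IP and input in log2(scaled FPKM + 1) was set against region by an interaction term. The added 1 shrinks this enrichment for genes near 0 FPKM, so a call can reflect level as well as ratio. Cdk1, called larger in the striatum in the wider fit, had IP over input ratios of mean scaled FPKM of 7.62 in the striatum and 8.49 in the hippocampus. Its hippocampal inputs held 1 fragment in total. The log2 enrichment was larger in the striatum for 13 of the 24 genes and smaller for 0, where it was larger for 8.46% of genes and smaller for 5.34%. Of the 13, Ube2c, Aurkb, Cdc20, Nusap1, Mcm5 and Cdca8 had passed the filter only through the striatal IPs, which already implies a difference. At an unadjusted p under 0.05, 18 of the 24 were larger and 0 smaller, and limma-voom called 9 larger and 0 smaller among 36 (5.7% and 3.75% of genes). In the wider fit, 19 of the 37 were larger and 0 smaller (6.89% and 3.97%). Without striatal inputs 971 and 974 it was 20 larger and 0 smaller. The count of 19 ranged from 12 to 15 when a whole animal was left out, being 12 without 970, 971 or 977. Since striatal IPs enter this difference, the striatal enrichment and the comparison of IPs, these counts are not independent of each other. In bulk RNA, fewer cells of a type and less RNA per cell cannot be told apart.

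**Figure D2:**
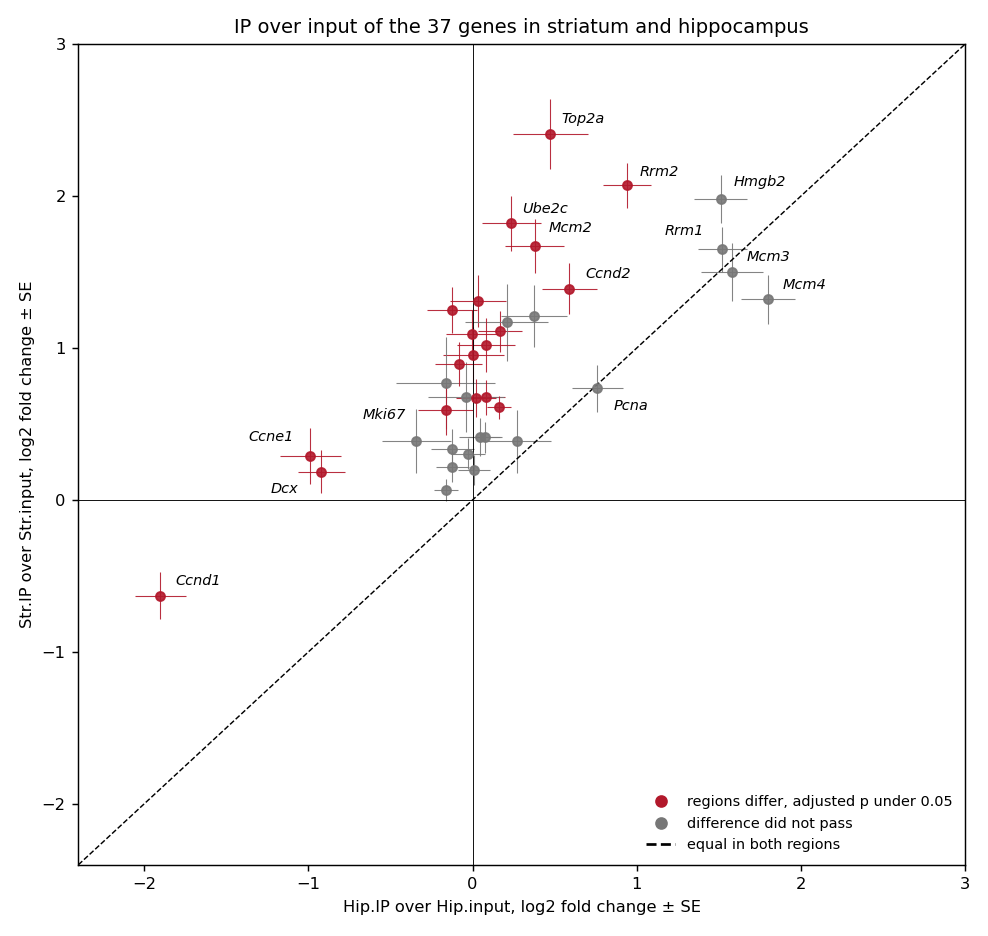
Log2 fold change of IP over input in the hippocampus (horizontal) and the striatum (vertical) for the 37 genes in the wider fit, with bars of 1 SE. Red points are the 19 genes whose enrichment differed between regions. Top2a, Ube2c and Rrm2 lie far above the diagonal, Mcm3, Mcm4, Pcna and Rrm1 lie near it, and Ccnd1 has negative values on both axes.

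Among the chromatin markers, Top2a (mm10 chr11:98992943-99024189, minus strand, as the coordinates of the other genes from GENCODE vM21), the topoisomerase that untangles replicated DNA, differed most between regions. It had 18.4, 7.46, 10.8 and 7.49 scaled FPKM in the striatal IPs of animals 970, 971, 974 and 977, against 0.878, 1.17, 1.39 and 1.12 in their inputs. In the hippocampus it had 1.29, 1.18, 0.392 and 0.676 in IPs, against 0.293, 0.215, 0.583 and 0.262 in inputs. All 4 striatal IPs were above every other library, and the hippocampal groups overlapped. The log2 fold change of striatal IP over input was 2.41 ± 0.23 (SE, adjusted p = 1.14e-07), and that of striatal over hippocampal IP was 2.62 ± 0.23 (adjusted p = 8.7e-07). In hippocampal IPs over inputs the value was 0.47 (95% interval -0.01 to 0.96), with an adjusted p of 0.0789. Top2a shares 122 exon bases with a small RNA gene on its own strand.

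Mki67, which encodes the Ki-67 protein that coats mitotic chromosomes, behaved otherwise. The striatal IPs had 3.15, 1.95, 4.46 and 2.68 scaled FPKM and the striatal inputs 1.65, 2.37, 3.35 and 1.16, so that these groups overlapped. The hippocampal IPs, at 0.55, 0.649, 0.778 and 0.708, were below all 4 hippocampal inputs, at 0.898, 1.04, 1.71 and 0.91. Neither IP to input fold change passed the test in limma: it was 0.39 (-0.06 to 0.83) in the striatum and -0.34 (-0.79 to 0.10) in the hippocampus. By limma-voom the striatal one did pass, at 0.70 ± 0.28 (adjusted p = 0.0349), and the hippocampal one did not, at -0.70 ± 0.33 (adjusted p = 0.0678). Striatal IPs were higher than hippocampal IPs by 1.25 ± 0.21 on the log2 scale (adjusted p = 0.000607).

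Hmgb2, a chromatin protein that bends DNA, was enriched in the IPs of both regions. It had 10.8, 8.69, 8.14 and 6.94 scaled FPKM in striatal IPs, against 1.51, 1.78, 1.61 and 0.889 in striatal inputs. The hippocampal IPs had 4.21, 3.98, 3.51 and 4.71, against 1.19, 0.475, 0.885 and 0.657 in hippocampal inputs. In both regions every IP was above every input, and the striatal IPs were above the hippocampal ones. The log2 enrichment was 1.98 ± 0.16 in the striatum and 1.51 ± 0.16 in the hippocampus, with an interval of -0.01 to 0.94 for their difference, which did not pass.

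Of the D cyclins, which pair with Cdk4 and Cdk6 to phosphorylate Rb, Ccnd2 (chr6:127125162-127152193, minus strand) had the highest FPKM of the 37 genes. It stood at 79.5, 61.6, 49.4 and 43.9 scaled FPKM in striatal IPs, against 21.2, 22.5, 23.9 and 17.4 in striatal inputs. Hippocampal IPs had 27.4, 30.3, 20.2 and 25.8, against 15.5, 16.5, 17.3 and 17.6 in hippocampal inputs. Every IP was above every input of its region. The log2 fold changes were 1.39 ± 0.17 in the striatum (adjusted p = 1.71e-06) and 0.59 ± 0.17 in the hippocampus (adjusted p = 0.00519). The hippocampal value was 0.06, with an adjusted p of 0.684, when FPKM was left unscaled. Striatal IPs were above hippocampal IPs by 1.12 ± 0.17.

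Ccnd1 ran the other way. It had 3.43, 3.00, 3.57 and 2.91 scaled FPKM in striatal IPs and 6.50, 5.50, 3.81 and 6.73 in striatal inputs, whereas it had 2.41, 1.98, 3.33 and 3.33 in hippocampal IPs and 11.9, 14.0, 13.2 and 12.5 in hippocampal inputs. The inputs were above the IPs in both regions without overlap. Ccnd1 fell by 1.90 ± 0.16 on the log2 scale in hippocampal IPs over inputs (adjusted p = 1.61e-08) and by 0.63 ± 0.16 in striatal ones (adjusted p = 0.00209). The 2 enrichments differed by 1.27 ± 0.22, the striatal being the less negative, and the striatal inputs were lower than the hippocampal inputs by a log2 fold change of -1.09 ± 0.16. The IPs of the 2 regions differed by 0.18, with an interval of -0.15 to 0.51. Ccnd1 shares 1100 of its GENCODE exon bases with LTO1 on the opposite strand, and the unstranded libraries cannot assign reads there by strand. Whether these bases entered the deposited values was not tested.

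Ccne1, the partner of Cdk2 at S phase entry, was likewise depleted in hippocampal IPs. They had 1.19, 0.535, 0.768 and 0.763 scaled FPKM, against 3.17, 1.89, 2.87 and 2.48 in hippocampal inputs, a log2 fold change of -0.99 ± 0.19 (adjusted p = 0.000197). In the striatum, IPs had 1.11, 1.13, 1.64 and 1.20, against 0.615, 0.409, 0.867 and 1.75 in inputs, and the groups overlapped. The enrichments differed by 1.28 ± 0.26 (adjusted p = 0.00365).

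**Figure D3:**
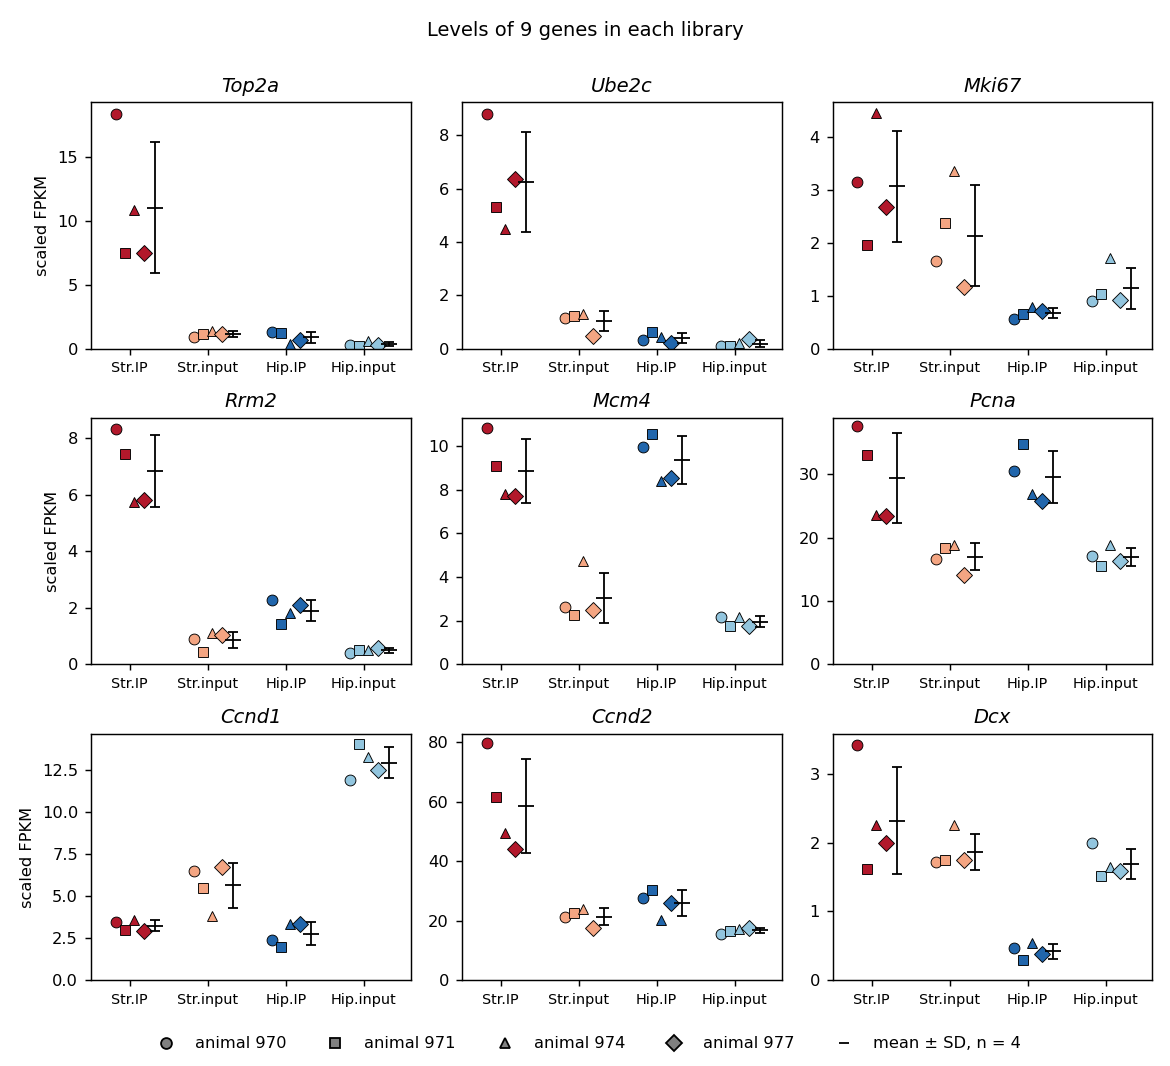
Scaled FPKM of 9 genes in each library (points, 4 animals per group) with the mean and SD (bars), on axes that start at 0. Top2a, Ube2c and Rrm2 are highest in striatal IPs, Pcna and Mcm4 are high in both IPs, Ccnd1 is highest in hippocampal inputs, and Dcx is low in hippocampal IPs only.

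The 9 replication genes divided into those alike in both IPs and those high in striatal IPs. Rrm1, the large subunit of ribonucleotide reductase, had 13.3, 9.36, 9.001 and 7.36 scaled FPKM in striatal IPs, against 2.38, 2.40, 2.06 and 2.62 in striatal inputs. Its hippocampal IPs had 9.80, 7.58, 7.80 and 7.999, against 2.72, 1.80, 2.42 and 2.08 in hippocampal inputs. Both enrichments passed, at 1.65 ± 0.15 and 1.52 ± 0.15 on the log2 scale, and the IPs differed by 0.19 (-0.13 to 0.51), which did not pass. Rrm2, the small subunit of the same enzyme, had 8.31, 7.45, 5.73 and 5.81 in striatal IPs, against 0.882, 0.44, 1.11 and 1.02 in striatal inputs. In hippocampal IPs it had 2.27, 1.41, 1.82 and 2.11, against 0.389, 0.514, 0.506 and 0.594 in hippocampal inputs. Every striatal IP of Rrm2 was above every hippocampal IP. Its log2 enrichment was 2.07 ± 0.15 in the striatum and 0.94 ± 0.15 in the hippocampus, a difference of 1.13 ± 0.21 (adjusted p = 0.0016). Striatal and hippocampal IPs differed by 1.43 ± 0.15 (adjusted p = 6.32e-06).

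Mcm4 and Mcm3, subunits of the replicative helicase, were enriched in the IPs of both regions at like levels. Mcm4 had 10.8, 9.07, 7.78 and 7.69 scaled FPKM in striatal IPs and 2.61, 2.27, 4.72 and 2.48 in striatal inputs, with 9.96, 10.6, 8.38 and 8.51 in hippocampal IPs and 2.15, 1.76, 2.18 and 1.75 in hippocampal inputs. Its log2 enrichment was 1.32 ± 0.16 in the striatum and 1.80 ± 0.16 in the hippocampus, and the IPs differed by -0.08 (-0.43 to 0.27). Mcm3 averaged 3.17 ± 1.17 scaled FPKM in striatal IPs, 0.471 ± 0.416 in striatal inputs, 2.81 ± 0.36 in hippocampal IPs and 0.271 ± 0.062 in hippocampal inputs (SD, n = 4 each). Its enrichments were 1.5 ± 0.19 and 1.58 ± 0.19, and the IPs differed by 0.09 (-0.30 to 0.49). For Mcm3 and Mcm4 the difference between IPs did not pass, and these intervals leave out a difference of 0.5 on the log2(scaled FPKM + 1) scale. The added 1 makes fold changes of low genes too small. For Mcm3, at means of 3.17 and 2.81, this bound therefore does not extend to the ratio of its FPKM.

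The other MCM subunits did not follow. Mcm2 averaged 3.54 ± 1.01 scaled FPKM in striatal IPs, 0.434 ± 0.359 in striatal inputs, 1.26 ± 0.06 in hippocampal IPs and 0.748 ± 0.247 in hippocampal inputs. It was higher in striatal than in hippocampal IPs by 0.98 ± 0.18 on the log2 scale (adjusted p = 0.00126). Mcm5 averaged 1.71 ± 0.70 in striatal IPs, 0.433 ± 0.172 in striatal inputs, 0.253 ± 0.083 in hippocampal IPs and 0.327 ± 0.052 in hippocampal inputs, and it rose in striatal over hippocampal IPs by 1.08 ± 0.15. Its hippocampal enrichment of -0.08 (-0.40 to 0.24) did not pass. Mcm7 averaged 5.66 ± 1.45 in striatal IPs, 4.25 ± 1.97 in striatal inputs, 3.61 ± 0.43 in hippocampal IPs and 2.82 ± 0.34 in hippocampal inputs, and none of its 5 comparisons passed in limma. Its striatal IPs nevertheless lay above all hippocampal IPs, with a lowest value of 4.31 against a highest of 4.03 and a ratio of means of 1.57.

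Pcna, the sliding clamp of DNA polymerase, had 37.7, 33.0, 23.5 and 23.3 scaled FPKM in striatal IPs, against 16.6, 18.4, 18.8 and 14.2 in striatal inputs. Hippocampal IPs had 30.6, 34.9, 26.8 and 25.8, against 17.1, 15.5, 18.9 and 16.3 in hippocampal inputs. All IPs were above all inputs. The log2 enrichment was 0.73 ± 0.15 in the striatum (adjusted p = 0.000556) and 0.76 ± 0.15 in the hippocampus (adjusted p = 0.000389), and the hippocampal value was 0.23 with an adjusted p of 0.0652 without scaling. The IPs of the 2 regions differed by -0.03 (-0.35 to 0.30). Tyms, which makes thymidylate, stayed under 1 FPKM everywhere and rose in striatal IPs over inputs by 0.42 ± 0.13 in the wider fit (adjusted p = 0.0109), with 64 to 121 fragments in the IPs and 8 to 23 in the inputs.

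The 21 mitotic genes had a summed level of 56.1, 30.1, 38.8 and 30.7 scaled FPKM in the striatal IPs of animals 970, 971, 974 and 977. The sum was 9.58, 8.66, 15.9 and 8.62 in their striatal inputs, 6.57, 7.17, 8.04 and 7.21 in their hippocampal IPs, and 6.97, 6.24, 6.69 and 6.62 in their hippocampal inputs. The striatal IPs were above all other libraries, and the hippocampal IPs and inputs overlapped. In the wider fit, 18 of the 21 rose in striatal IPs over inputs and 0 fell, where 26.5% and 25.7% of 18198 genes did so. Between the IPs, 16 were higher in the striatum and 0 lower (5.75% and 4.02% of genes), and 11 had a larger enrichment in the striatum and 0 a smaller one (6.89% and 3.97%). By limma-voom, 17 of 20 rose in striatal IPs over inputs and 17 were higher between IPs, but only 2 had a larger enrichment in the striatum, with 12 at an unadjusted p under 0.05. The 3 counts of 0 were also 0 at an unadjusted p under 0.05 and by limma-voom. In hippocampal IPs over inputs, 0 rose and 0 fell by limma, with 1 higher and 1 lower at an unadjusted p under 0.05 (Tpx2 and Birc5), and limma-voom called 1 of 20 higher. With the library of animal 970 set aside, the striatal IPs still summed to 30.1 to 38.8, against at most 15.9 in any library of another group.

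Ube2c (chr2:164769898-164778822, plus strand), the ubiquitin-conjugating enzyme of the anaphase promoting complex, reached 1 FPKM in 3 libraries outside the striatal IPs. It thus passed the filter only through the striatal IPs, so that its passing already implies a difference. It had 8.81, 5.33, 4.48 and 6.37 scaled FPKM in striatal IPs, against 1.16, 1.21, 1.30 and 0.461 in striatal inputs. The hippocampal IPs had 0.329, 0.625, 0.452 and 0.193, against 0.0913, 0.0861, 0.198 and 0.367 in hippocampal inputs. These values rest on 61 to 136 fragments in striatal IPs and on 10 or fewer in every other library. Striatal IPs exceeded every other library, by 1.82 ± 0.18 over their inputs (adjusted p = 2.29e-07) and by 2.35 ± 0.18 over hippocampal IPs (adjusted p = 3.05e-07) on the log2 scale. Ube2c shares 592 of its GENCODE exon bases with Tnnc2 on the opposite strand, and the unstranded libraries cannot assign reads there by strand. Whether these bases entered the deposited values was not tested.

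Cdc20, the activator of the same complex, had 2.73, 1.63, 1.34 and 1.12 scaled FPKM in striatal IPs, against 0.27, 0.269, 0 and 0.481 in striatal inputs, 0.0343, 0.293, 0.0337 and 0.134 in hippocampal IPs, and 0.0952, 0, 0.103 and 0.306 in hippocampal inputs. All striatal IPs were above all other libraries, with 29 to 81 fragments, against 10 or fewer elsewhere. The log2 enrichment in the striatum was 1.09 ± 0.17 (adjusted p = 3.44e-05) and the difference between IPs 1.24 ± 0.17 (adjusted p = 0.000102). Bub1b, a spindle checkpoint kinase of the same role, did not pass the 1 FPKM filter. In the wider fit it rose in striatal IPs over inputs by 1.11 ± 0.13 (adjusted p = 3.39e-06), with 94, 70, 90 and 67 fragments in the IPs and 10, 0, 0 and 5 in the inputs. Its partner Bub1 had 22 to 97 fragments in striatal IPs, 3 to 15 in striatal inputs, 3 to 9 in hippocampal IPs and 1 to 10 in hippocampal inputs, and rose by 0.30 ± 0.10 in striatal IPs over inputs (adjusted p = 0.0199).

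All 7 mitotic cyclins and kinases rose in striatal IPs over inputs in the wider fit. Ccna2, which acts in S phase and G2, averaged 5.85 ± 2.13 scaled FPKM in striatal IPs, 2.10 ± 1.31 in striatal inputs, 1.11 ± 0.19 in hippocampal IPs and 0.855 ± 0.394 in hippocampal inputs. It rose by 1.17 ± 0.25 in striatal IPs over inputs and by 1.65 ± 0.25 over hippocampal IPs, and it shares 510 exon bases with Exosc9. Cdk1, the kinase that drives mitotic entry, had 53, 17, 43 and 27 fragments in striatal IPs, 1, 1, 3 and 2 in striatal inputs, 1, 0, 9 and 3 in hippocampal IPs, and 0, 0, 1 and 0 in hippocampal inputs. Every striatal IP held more Cdk1 fragments than any other library, and the wider fit gave 0.68 ± 0.12 over striatal inputs (adjusted p = 0.00012). Its cyclin Ccnb1 had 32 to 111 fragments in striatal IPs and at most 9 in any other library, and rose by 0.96 ± 0.19 over striatal inputs and by 1.24 ± 0.19 over hippocampal IPs.

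Ccnb2 was less uniform, with 3.13, 0.265, 3.02 and 2.10 scaled FPKM in striatal IPs, against 0.625, 0.416, 0.943 and 0.724 in striatal inputs. Animal 971 was the only one whose striatal IP was below its input. The calls for Ccnb2 passed narrowly, at adjusted p = 0.0336 over striatal inputs and 0.0472 over hippocampal IPs, and the call over hippocampal IPs was lost in the wider fit (adjusted p = 0.0601). Aurkb, the Aurora kinase of the passenger complex, had 1.69, 2.02, 2.41 and 1.69 scaled FPKM in striatal IPs, against 0.491, 0, 0 and 0.306 in striatal inputs, and rose by 1.31 ± 0.18 (adjusted p = 6.96e-06). Plk1 and Aurka, kinases of the spindle poles and centrosomes, rose by 0.67 ± 0.12 and 0.41 ± 0.10 over striatal inputs in the wider fit, and Aurka did not pass between IPs (0.26, adjusted p = 0.141).

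At the kinetochore and in the passenger complex, 3 of 5 genes rose in striatal IPs over inputs in the wider fit. Cdca8, which encodes the passenger protein borealin, had 3.04, 2.22, 2.19 and 1.19 scaled FPKM in striatal IPs, against 0.444, 0.394, 0.149 and 0.211 in striatal inputs, and its log2 enrichment was 1.25 ± 0.16 (adjusted p = 3.44e-06). The hippocampal enrichment of Cdca8 was -0.13, and the 2 differed by 1.38 ± 0.22 (adjusted p = 0.000553). Cenpe, a kinetochore motor, had 2.78, 1.27, 1.96 and 1.62 in striatal IPs, against 0.37, 0.41, 2.39 and 0.56 in striatal inputs, of which that of animal 974 reached into the range of the IPs. Its call over striatal inputs had an adjusted p of 0.018. Cenpf, a kinetochore protein of G2 and mitosis, had 607, 229, 271 and 192 fragments in striatal IPs and 15 to 66 in all other libraries, and rose by 1.02 ± 0.18 over striatal inputs. Birc5, the passenger protein survivin, had 0 to 16 fragments in any library, and Spc25, of the Ndc80 complex, had 42, 13, 7 and 24 in striatal IPs and 8 or fewer elsewhere. Neither passed in any comparison of the wider fit.

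Of the 5 spindle genes, 4 rose in striatal IPs over inputs. Kif11, the motor that separates the spindle poles, had 6.44, 4.11, 4.67 and 2.37 scaled FPKM in striatal IPs, against 1.25, 0.796, 1.96 and 1.12 in striatal inputs, with a log2 enrichment of 1.21 ± 0.20 (adjusted p = 6.42e-05). The striatal IPs of Kif11 were above the hippocampal IPs, at 1.47, 1.22, 0.76 and 1.03, by 1.30 ± 0.20. Nusap1, which binds spindle microtubules, rose by 0.59 ± 0.17, Tpx2, the activator of Aurora A, by 0.61 ± 0.08, and Prc1, which bundles midzone microtubules, by 0.33 ± 0.13 in striatal IPs over inputs. Kif20a, a motor of the central spindle, did not pass (0.22, adjusted p = 0.0822). Kif20a shares 1271 exon bases with Cdc23 and Prc1 911 with Rccd1, both on the opposite strand.

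Promoter letters and calls were set side by side as a description. Of the 16 genes with the CHR letters, 13 were higher in striatal than in hippocampal IPs in the wider fit. So were 7 of the 14 whose window lacked them, and 5.75% of 18198 genes. In striatal IPs over inputs the counts were 14 of 16 and 10 of 14 (26.5% of all genes). In hippocampal IPs over inputs they were 1 of 16 and 4 of 14 (23.4%). The letters were found in most mitotic genes with a window and in 1 of 8 replication genes, so letters and role cannot be told apart here.

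Dcx (chrX:143855842-143933311, minus strand), which encodes the microtubule protein doublecortin of migrating neuroblasts, had 3.42, 1.61, 2.25 and 1.99 scaled FPKM in striatal IPs, against 1.72, 1.74, 2.25 and 1.75 in striatal inputs. The hippocampal IPs had 0.462, 0.286, 0.547 and 0.385, against 1.99, 1.51, 1.65 and 1.59 in hippocampal inputs. The hippocampal IPs were therefore below every other library, and the other 3 groups overlapped. Depth was ample for this gene, with 178 to 329 fragments in hippocampal IPs and 336 to 2053 elsewhere. Dcx fell by 0.92 ± 0.14 on the log2 scale in hippocampal IPs over inputs (adjusted p = 2.89e-05). It did not pass in striatal IPs over inputs, at 0.19 (-0.12 to 0.49). The enrichments differed by 1.11 ± 0.20 (adjusted p = 0.00146), and striatal IPs exceeded hippocampal IPs by 1.20 ± 0.14 (adjusted p = 2.6e-05). By limma-voom these log2 differences of Dcx were larger, at -2.04 ± 0.22 in hippocampal IPs over inputs, 2.32 ± 0.30 between the enrichments and 2.45 ± 0.22 between IPs.

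Among 25 further genes of newborn neurons, 21 were tested. In striatal over hippocampal IPs 10 were higher and 3 lower, where 7.18% and 5.37% of 13449 genes were. In hippocampal IPs over inputs 3 rose and 16 fell, where 30.1% and 35.4% of genes did, and the enrichment was larger in the striatum for 13 and smaller for 2, where it was for 8.46% and 5.34%. In striatal IPs over inputs 5 rose and 7 fell, shares near those of all genes (33.5% and 31.4%). Dlx2, a homeobox factor of the interneuron lineage, averaged 3.96 scaled FPKM in striatal IPs, 0.667 in striatal inputs, 0.0781 in hippocampal IPs and 0.554 in hippocampal inputs. It rose in striatal over hippocampal IPs by 2.17 ± 0.18 (adjusted p = 5.38e-07) and over striatal inputs by 1.56 ± 0.18 (adjusted p = 1.12e-06). Sp9 and Dlx5, of the same lineage, were higher in striatal than in hippocampal IPs by 1.88 ± 0.16 and 1.96 ± 0.18, yet their means of 3.59 and 3.80 in striatal IPs were below those of 5 and 8.15 in striatal inputs. Neurod1 and Bhlhe22, factors of dentate granule neurons, fell in hippocampal IPs over inputs by 2.74 ± 0.15 and 2.35 ± 0.15. Prox1, which marks dentate granule cells, was lower in striatal than in hippocampal IPs, with a log2 fold change of -1.53 ± 0.17.

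**Figure D4:**
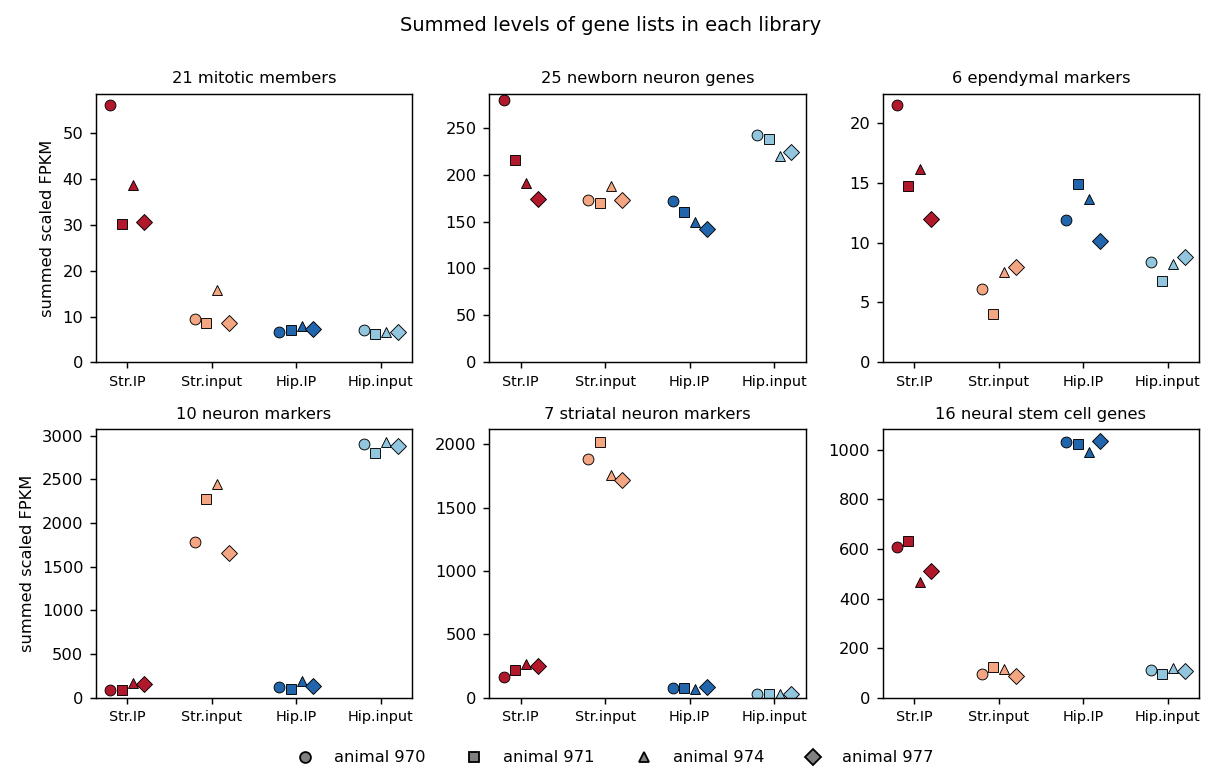
Summed scaled FPKM of gene lists in each library (points, 4 animals per group), on axes that start at 0. The 21 mitotic genes are highest in the 4 striatal IPs, at 30.1 to 56.1, the ependymal markers are also highest there on average, and the neural stem cell genes are highest in hippocampal IPs, at 990.1 to 1034.

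Further cell cycle genes, none of them among the 37, gave counts to be read against the shares of all 13449 genes: 33.5% higher and 31.4% lower in striatal IPs over inputs, 30.1% and 35.4% in hippocampal IPs over inputs, and 7.18% and 5.37% between IPs. Of 27 mitosis genes, 16 were tested, and 9 of these were higher and 0 lower in striatal than in hippocampal IPs (11 and 0 at an unadjusted p under 0.05). The wider fit gave 16 higher and 0 lower of 27 (5.75% and 4.02% of 18198 genes), and limma-voom gave 16 higher and 0 lower of 26. Cdca3 had the smallest p, with 1.99 scaled FPKM in striatal IPs, 0.225 in striatal inputs, 0.342 in hippocampal IPs and 0.101 in hippocampal inputs, and a log2 fold change between IPs of 1.15 ± 0.15 (adjusted p = 6.82e-05). Foxm1, a transcription factor of the G2 to M transition, was higher by 0.76 ± 0.13 (adjusted p = 0.000563). The means of Cdca3 and Foxm1 were under 1 scaled FPKM in every group but the striatal IPs. For a gene that passes the 1 FPKM filter only through striatal IPs, passing already implies a difference. In striatal IPs over inputs 9 rose and 2 fell, among them Anln (-1.62 ± 0.21), a cytokinesis protein whose mean was 4.22 in striatal IPs and 14.9 in striatal inputs. Of 23 replication genes, 13 were tested, with 7 higher and 1 lower in striatal IPs over inputs, 3 higher and 3 lower in hippocampal IPs over inputs, and 2 higher (Hells and Mcm6) and 0 lower between IPs (4 and 1 at an unadjusted p under 0.05). Between IPs, the wider fit gave 9 and 0 of 23, and limma-voom gave 10 and 0 of 23.

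Of 18 G1 control genes, 13 were tested, and 3 were higher and 1 lower in striatal than in hippocampal IPs. Cdk6, a partner of the D cyclins, was higher by 1.45 ± 0.26 (adjusted p = 0.000927), with a mean of 2.84 scaled FPKM in striatal IPs, 0.899 in striatal inputs, 0.412 in hippocampal IPs and 1.20 in hippocampal inputs. Cdkn2c, an inhibitor of Cdk4 and Cdk6, was lower, with a log2 fold change of -0.83 ± 0.21. Over inputs, 7 of the 13 rose and 1 fell in striatal IPs (33.5% and 31.4% of 13449 genes). In hippocampal IPs, 6 rose and 5 fell (30.1% and 35.4%). Of the cell cycle inhibitors, Rb1, Rbl2 and Cdkn1b rose in the IPs of both regions over inputs, by 1.84 ± 0.21, 1.16 ± 0.16 and 1.12 ± 0.16 in the striatum and by 1.76 ± 0.21, 1.79 ± 0.16 and 1.39 ± 0.16 in the hippocampus. The inhibitors Cdkn2d and Cdkn1a instead had lower means in hippocampal IPs, at 5.09 and 0.824 scaled FPKM, than in hippocampal inputs, at 11 and 1.22.

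Markers of other cells were measured beside these genes. The 16 neural stem cell genes, most of which astrocytes also express, summed to 465.9 to 631.5 scaled FPKM in striatal IPs, 86.5 to 122.4 in striatal inputs, 990.1 to 1034 in hippocampal IPs and 96.96 to 119.2 in hippocampal inputs. Of the 14 tested, 1 was higher and 7 were lower in striatal than in hippocampal IPs. A large part of the sum was Fabp7, at means of 104 in striatal and 360 in hippocampal IPs. The astrocyte markers went the same way between IPs, with 0 higher and 5 lower of 10 and a median log2 fold change of -0.49. The part of neural stem cells in these results was not tested. The 6 ependymal markers summed to 21.5, 14.7, 16.1 and 12 in striatal IPs, 4.03 to 7.96 in striatal inputs, 10.1 to 14.9 in hippocampal IPs and 6.78 to 8.76 in hippocampal inputs. Most of the mean sum in the IPs was Rarres2, at 9.4 in striatal and 9.55 in hippocampal IPs. Foxj1, the regulator of motile cilia, rose by 1.07 ± 0.24 in striatal IPs over inputs (adjusted p = 0.00091). Rarres2 also rose there (1.78, adjusted p = 8.37e-06). Rsph1 (0.519, adjusted p = 0.12) and Ccdc153 (-0.257, adjusted p = 0.342) did not pass. In hippocampal IPs over inputs, Rarres2 was higher (2.29), Ccdc153 and Rsph1 were lower (-1.04 and -0.956), and Foxj1 (0.105) did not pass. Of the 4 ependymal markers tested between IPs, 0 passed in either direction, with 1 higher at an unadjusted p under 0.05 and 1 of 5 higher by limma-voom. Striatal IP 970 was the highest of its group for both the mitotic and the ependymal sum. It was also the highest for Dcx and for the sums of oligodendrocyte precursor markers and of the further newborn neuron, mitosis, replication and G1 control genes. It was not the highest for the neural stem cell, astrocyte, neuron, microglial or endothelial sums. The part of ependymal or subventricular tissue, or of oligodendrocyte precursors, in these results was not tested.

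The oligodendrocyte precursor markers summed to 34.8 to 69.4 scaled FPKM in striatal IPs, 72.4 to 97.8 in striatal inputs, 77.2 to 116.4 in hippocampal IPs and 59.2 to 63.9 in hippocampal inputs, so that the striatal IPs were below the hippocampal IPs without overlap. Most of this sum was Olig1 and Olig2, at means of 40.3 and 5.38 in striatal IPs, against 73.2 and 16.1 in hippocampal IPs. The list did not move one way: of 10 markers tested between IPs, 4 were lower and 1 higher (Sox10, 0.77 ± 0.17, adjusted p = 0.00693), with a median of -0.03. Microglial markers summed to 27.2 to 32.9 in striatal IPs, 133.4 to 163.4 in striatal inputs, 26.6 to 30.9 in hippocampal IPs and 94.97 to 98.9 in hippocampal inputs. Endothelial markers summed to 1.97 to 3.07 in striatal IPs, 20.1 to 24.1 in striatal inputs, 2.27 to 3.19 in hippocampal IPs and 16.3 to 19.2 in hippocampal inputs. Between IPs, limma and limma-voom called 0 genes of both lists, and at an unadjusted p under 0.05 limma gave 1 microglial gene higher and 1 lower. The striatal neuron markers summed to 165.0 to 265.3 in striatal IPs, 1715 to 2018 in striatal inputs, 67.1 to 83.4 in hippocampal IPs and 27.2 to 31.3 in hippocampal inputs, and 6 of 7 were higher in striatal than in hippocampal IPs. Nearly all of the hippocampal IP sum was Ppp1r1b, at a mean of 75, against 11.3 in hippocampal inputs and 106 in striatal IPs. Penk, Tac1 and Drd2 instead fell in hippocampal IPs over inputs, with log2 fold changes of -2.75, -2.39 and -1.15. The part of neuronal RNA in the striatal IP values of Dcx and the Dlx genes was not tested.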

How the data were processed

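Whole striata and hippocampi of 4 mice gave an IP and an input library each. Libraries were made with Ovation RNA-Seq V2 and were not stranded, per the labels' protocols. Per the submitters' processing notes, base calls came from bcl2fastq 2.17, and STAR, HTSeq and mm10 are named, with no versions. The deposited tables hold 1 value per gene label and library. The unit of these deposited values is taken from the values as FPKM, since they are whole fragments divided by depth and by a length per gene. The length denominator is not given in the sources used here. Of 24060 labels, 2 repeated and 23 date-like ones were left out.

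FPKM were divided by trimmed-mean factors f (30% of log ratios and 5% of levels trimmed; 0.746 to 1.30), which gives scaled FPKM, and their log2(value + 1) entered a linear model in limma 3.58.1 under R 4.3.3. The pseudocount of 1 makes fold changes of low genes too small. All 16 libraries and 4 groups entered the fit (12 residual degrees of freedom, trended and robust variance). Genes had at least 1 FPKM in at least 4 libraries (13449), and p-values were adjusted over all of them by the Benjamini-Hochberg method. Intervals of fold changes are 95% intervals from the same fit. No count model was used for the main result. Whole fragments were recovered from the FPKM steps (within 0.001 of a whole number for 19207 of 19208 labels above 0 in at least 2 libraries) and fitted with limma-voom (at least 10 fragments in at least 4 libraries, 14923 genes), a choice made after the values were seen. No library repeated the values of another.

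The 4 libraries of an animal are paired by label. Once group means were taken out, deviations over genes of 2 libraries from 1 animal correlated at 0.308 to 0.532 for the 2 IPs, 0.0536 to 0.319 for the 2 inputs, 0.0852 to 0.172 for hippocampal IP with input and -0.00816 to 0.0848 for striatal IP with input. The animal entered as a block in an alternative fit. The genes followed and the other lists were chosen with earlier results of these data known. Of other lists, counts and up to 4 genes with the smallest p were open to naming. Python 3.11.15, pandas 2.3.3 and matplotlib 3.10.9 were used for tables and figures. Other alternatives were another scaling, no scaling, a pseudocount of 0.1, the wider filter, each animal left out, and striatal inputs 971 and 974 left out.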

Additional observations from a re-analysis of the deposited data

Results flagged for a closer look

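Among 148 sets of 4 libraries (37 genes in 4 groups), 18 had a library far from the other 3 by Dixon's test at the 95% level, which chance gives in about 1 set in 20. Of these, 7 were striatal input 974, the shallowest library. There, Cdk1 had 0.253 scaled FPKM, against 0.042 to 0.0598 in the other 3, but from 3 fragments. Ccna2 had 4.04 (others 1.20 to 1.65), Cenpe 2.39 (0.37 to 0.56), Cenpf 0.716 (0.207 to 0.291), Mcm3 1.09 (0.222 to 0.334), Mcm4 4.72 (2.27 to 2.61) and Dcx 2.25 (1.72 to 1.75) scaled FPKM. All 7 were the highest of their group. Striatal input 977 was the lowest for Ube2c, at 0.461, and striatal input 971 the highest for Tpx2, at 0.219.

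In striatal IPs, Ccne1 was highest in animal 974, at 1.64 scaled FPKM, and Aurka in animal 970, at 1.01. In hippocampal IPs, Aurkb stood at 0.731 in animal 977 (others 0.092 to 0.156) and Birc5 at 0.132 in animal 971. In hippocampal inputs, Cdk1 stood at 0.0321 in animal 974 from 1 fragment, Kif20a at 0.511 in animal 974, Nusap1 at 1.02 and Tyms at 0.787 in animal 971, and Spc25 at 0.123 in animal 970 from 6 fragments.

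The log2 enrichment of IP over input was larger in the striatum than in the hippocampus by 1.94 for Top2a, 1.59 for Ube2c, 1.38 for Cdca8, 1.29 for Mcm2, 1.28 for Aurkb and 1.28 for Ccne1. It was larger by 1.27 for Ccnd1, 1.13 for Rrm2, 1.11 for Dcx, 1.09 for Cdc20, 0.98 for Mcm5, 0.80 for Ccnd2 and 0.76 for Nusap1. All 13 passed the interaction test of the fit across all genes.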

How the results depend on the processing

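Of 90 results on single genes of the 37, computed under 840 alternatives in all, 0 reversed, 758 kept their direction and side of the threshold, and 82 (from 25 results) kept the direction but no longer passed. With the animal as a replicate block, 0 of 66 single-gene calls were lost, and the counts of the 24 genes higher and lower were 20 and 1 in striatal IP over input, 7 and 3 in hippocampal IP over input, 17 and 0 between IPs, 5 and 2 between inputs, and 14 and 0 for the difference in enrichment. The number higher in striatal IP over input was 29 with the wider filter, which tests more of the 37 genes, and 29 by limma-voom, and the number higher between IPs was 26 by limma-voom. Between inputs, the number higher was 0 without striatal inputs 971 and 974 and 2 by limma-voom, and it ranged from 0 to 4 with an animal left out. It was 0 without animal 971 and 1 without 974. Over all 37 genes it was 0 without those 2 inputs and ranged from 0 to 3. The number with a larger enrichment in the striatum, 19 of 37, ranged from 12 to 15 with an animal left out. The cause was not tested.

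Without scaling, the median log2 fold change of all genes moved to -0.51 in hippocampal IP over input, -0.25 in striatal IP over input, 0.11 between IPs and 0.25 for the difference in enrichment. Calls lost under at least 1 alternative were those of Ccnd2 and Pcna in hippocampal IP over input, Ccnb2, Cenpe and Prc1 in striatal IP over input, Ccnb2 and Cenpe between IPs, and Top2a, Ube2c, Ccna2 and Hmgb2 between inputs. For the difference in enrichment they were those of Top2a, Ube2c, Ccnd2, Aurkb, Cdc20, Nusap1, Rrm2 and Mcm5 and, among calls made in the wider fit, Cdk1, Ccnb1, Plk1, Bub1b, Cenpf and Tpx2. The folds of lost calls were not always smaller: the difference was 1.69 to 1.73 for Ube2c where its call was lost, against 1.59, and 3.37 for Aurkb by limma-voom, against 1.28. Fragments of 10 or fewer per library limit Cdk1, Ccnb1, Cdc20 and Ube2c outside the striatal IPs. For Birc5 and Spc25, also of few fragments, no difference passed after adjustment in the wider fit. Birc5 was lower in hippocampal IPs over inputs by limma at an unadjusted p under 0.05.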
